A study of Mus musculus with 2 samples.

Results

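Chemokines are small secreted proteins that guide migrating cells, mostly leukocytes, along gradients held on the glycosaminoglycans of tissue. They act through G protein-coupled receptors, and a few atypical receptors bind and remove them without that signalling. In skin, keratinocytes and fibroblasts are known sources of chemokines, whereas most receptors are carried by leukocytes. The 56 genes described here are all those for which the array's annotation gave a probe set 1 symbol that begins with Ccl, Cxcl, Cx3cl, Xcl, Ccr, Cxcr, Cx3cr, Xcr or Ackr and continues with a number, of 22180 genes in all. They were read by 57 probe sets and comprised 34 ligands, 18 receptors and 4 atypical receptors. The annotation, not the measured values, chose them under that rule, though the rule was set with earlier results of these data known.

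RNA came from 2 three-dimensional skin models at day 7, a knockout model of cells labelled Itih5 knockout and a wildtype model of cells labelled wildtype. Both were made of epidermal keratinocytes and dermal fibroblasts that had been grown from the skin of adult, untreated mice and passaged serially. The number of mice behind each culture and the way Itih5 was disrupted were not stated in the labels. Each model was read on 1 array, so no difference below has a replicate error or a test, and the number of arrays limits the precision. Values are linear intensities of probe sets, and differences are log2 values, knockout minus wildtype. A gene was called expressed if the higher of its intensities reached 46.6, the median level of all restored probe sets. The 5th percentiles were 21.4 in both models, but background differs between probe sets. In these models of keratinocytes and fibroblasts, B cell markers read 31.6 to 46.2 in knockout and 27.8 to 45.3 in wildtype. Genes little above the threshold may therefore also be at background. Itih5 itself read 30.4 on the knockout array and 29.8 on the wildtype array, under that threshold on both, and does not check the labels.

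The deposited values had lost their decimal points, which were put back before anything was compared. Of the 56 genes, 52 had a point that could be restored, and 4 (Ccl2, Ccl8, Ccl25 and Ccr6) had several possible places and stayed undecided. Of the 52, 33 were expressed, among them 21 ligands, 10 receptors and 2 atypical receptors. The others, 10 ligands, 7 receptors and 2 atypical receptors, were below the threshold in both models. For 21 of the 33 expressed genes only 1 place of the point was possible on each array.

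Expressed chemokine genes lay on both sides of equality, and the large differences were all among ligands. The monocyte attractant gene Ccl7, the Ccr1 ligand gene Ccl9 and the neutrophil attractant gene Cxcl2 were higher in the knockout model by at least 2-fold. The macrophage inflammatory protein gene Ccl3 and the interferon-inducible Cxcl9 were at least 2-fold lower, Ccl3 by 9.26-fold. The other 28 expressed genes were within 2-fold, including all 12 receptors of both kinds. Most of these receptors read at most 63.0 in either model, too near background for a large fall to be seen. Where several places of the point were possible, the choice was weighted by the differences of all probe sets, which favours near-equal pairs. For such genes, lying within 2-fold follows in part from that choice. Other pairings give, for example, -5.74 for Ackr1, -4.06 for Ccr9, -2.95 for Cxcl5 and 2.99 for Cxcl16. The count of 3 higher is 9.09% of the 33, beside 3.76% of all 12694 expressed genes, and the count of 2 lower is 6.06%, beside 3.31%. At 1.5-fold, 9 were higher (27.3%, beside 11.5% of all expressed genes) and 5 lower (15.2%, beside 8.36%). The median difference was 0.04, the same to 2 decimals as over all expressed genes, with 17 genes above 0 and 16 below. Ligands had a median of 0.16, and receptors of both kinds one of -0.07. Neither median is firm, since with the threshold at the 60th percentile they were 0.43 and 0.42, and without a threshold 0.013 and 0.011.

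**Figure D1:**
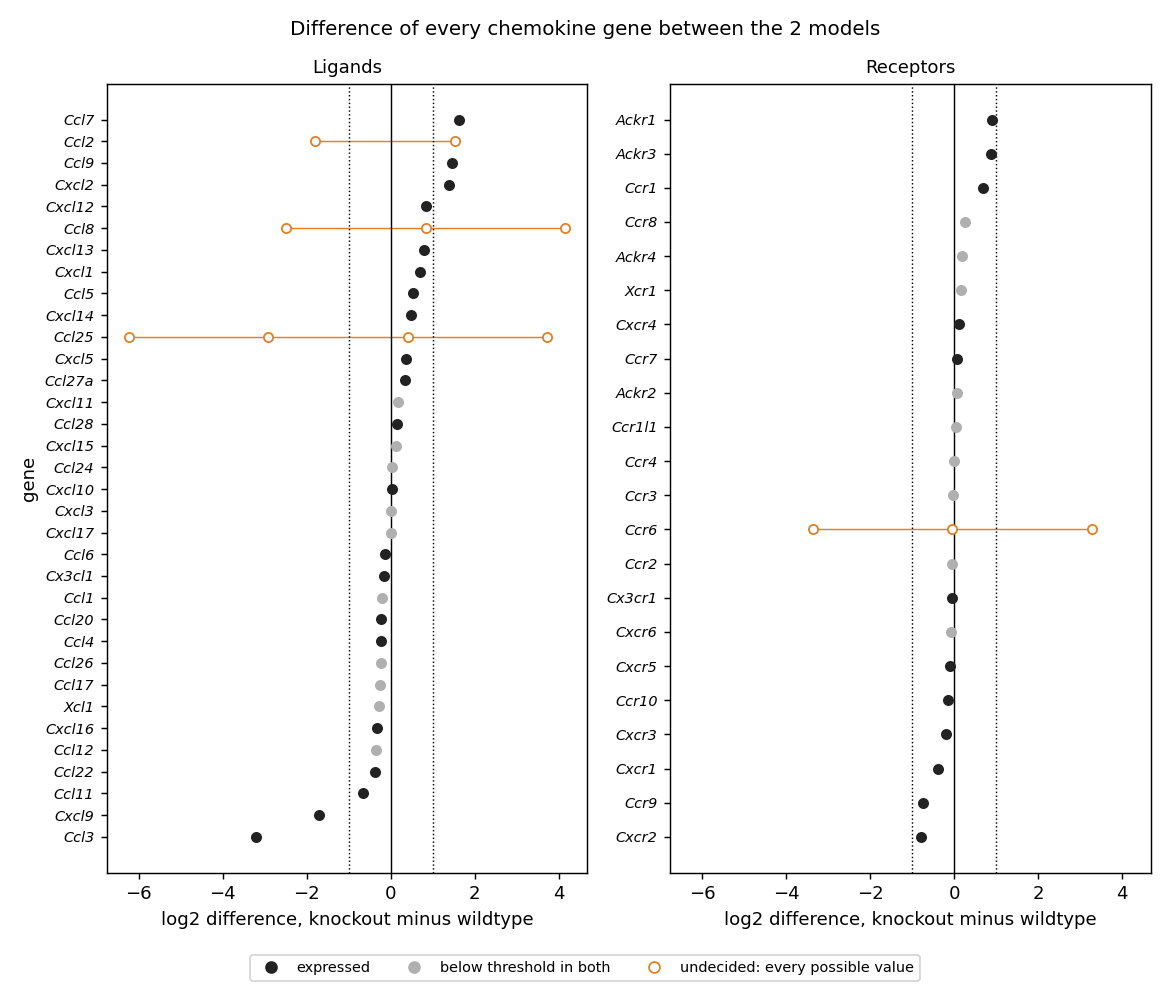
Log2 difference, knockout minus wildtype, of each of the 34 ligand genes (left) and 22 receptor genes (right), 1 array per model, with dotted lines at 2-fold. Black points are expressed genes, grey points genes below the threshold in both models, and open orange points every difference possible for the 4 undecided genes. Ccl3 at -3.21 stands far from the other ligands, and no receptor with a restored point passes a dotted line.

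Stretches of DNA just before the start of 5 of these genes are shown because they belong to ligands at least 2-fold apart, with Cxcl1 added as the close neighbour of Cxcl2. They are the 250 bases upstream of the RefSeq start in assembly GRCm38.p6, written in the direction of the gene. Capitals mark matches to the NF-kappaB consensus or to the AP-1 motif TGANTCA, searched on both strands. RefSeq promoter sequences were matched for 24 of the 33 expressed genes. Those of Ccl7, Ccl4, Ccl5, Ccl11, Ccr7, Ccr10, Cxcl5, Cxcl16 and Cxcr5 were not among them.
Cxcl2, chr5:90903649-90903898, plus strand: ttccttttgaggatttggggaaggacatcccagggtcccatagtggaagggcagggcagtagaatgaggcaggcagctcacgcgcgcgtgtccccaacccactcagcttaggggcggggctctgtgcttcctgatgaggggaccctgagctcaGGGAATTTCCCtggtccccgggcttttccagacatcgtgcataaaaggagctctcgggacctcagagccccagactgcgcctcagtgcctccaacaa
Cxcl1, chr5:90890995-90891244, plus strand: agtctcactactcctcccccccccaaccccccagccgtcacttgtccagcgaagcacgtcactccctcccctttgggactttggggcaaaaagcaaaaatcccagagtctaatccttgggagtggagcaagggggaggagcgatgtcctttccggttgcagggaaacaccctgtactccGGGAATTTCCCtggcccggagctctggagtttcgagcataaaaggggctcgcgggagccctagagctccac
Ccl9, chr11:83578637-83578886, minus strand: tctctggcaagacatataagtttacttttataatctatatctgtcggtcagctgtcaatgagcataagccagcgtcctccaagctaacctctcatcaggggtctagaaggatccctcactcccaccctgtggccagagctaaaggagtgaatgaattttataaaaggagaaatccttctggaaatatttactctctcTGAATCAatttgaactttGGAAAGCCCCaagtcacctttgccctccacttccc
Ccl3, chr11:83649379-83649628, minus strand: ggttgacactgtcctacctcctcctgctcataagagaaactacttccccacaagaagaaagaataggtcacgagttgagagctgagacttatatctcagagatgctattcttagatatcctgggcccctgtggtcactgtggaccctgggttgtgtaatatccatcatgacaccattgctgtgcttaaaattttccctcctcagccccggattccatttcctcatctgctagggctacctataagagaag
Cxcl9, chr5:92328080-92328329, minus strand: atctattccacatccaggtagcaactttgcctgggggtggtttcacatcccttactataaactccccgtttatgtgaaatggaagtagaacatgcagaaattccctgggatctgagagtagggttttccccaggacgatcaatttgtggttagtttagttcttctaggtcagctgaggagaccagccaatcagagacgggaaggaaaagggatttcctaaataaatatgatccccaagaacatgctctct

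The same run of 11 letters, GGGAATTTCCC, stood 97 to 87 bases before the start of Cxcl2 and 71 to 61 bases before that of Cxcl1. It holds 2 overlapping matches to the NF-kappaB consensus. Ccl9 had 1 match to the consensus, 35 to 26 bases before its start, and 1 AP-1 match, 53 to 47 bases before it. The windows of Ccl3 and Cxcl9, the ligands that were lower in the knockout model, held no capitals, which says only that these letters were not found there. Counted by gene, in any of its windows, the NF-kappaB consensus was found for 6 of the 24 matched genes. Counted by window, for genes expressed or not, it was found in 7.25% of all 32851 promoter windows of that length. Besides Cxcl1, Cxcl2 and Ccl9 the 6 genes were Ccl20, Cxcl10 and Ccr1, with differences of -0.22, 0.04 and 0.68. Genes with the consensus thus included ones close to equal in the models. The AP-1 motif was found for 3 genes (6.75% of all windows) and the core of the interferon-stimulated response element for 2 (2.98% of all windows), namely Cxcl10 and Cxcl14. A match is a string of letters and not a measured binding site.

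Of the monocyte attractant genes Ccl2, Ccl7, Ccl8 and Ccl12, Ccl7 was the only one expressed with a restored point. Ccl7 (probe set 17254047), whose product attracts monocytes through Ccr2, read 1706 in knockout and 548 in wildtype, a difference of 1.64 or 3.11-fold. Of all expressed genes 119 lay above it. Ccl2 (17254041), the chief monocyte attractant gene, kept its point in the knockout model, at 3238, while the digits of the wildtype value, 11239426, allow 1124 or 11239. The first gives a difference of 1.53 (2.88-fold higher in knockout) at a probability of 0.92 and the second one of -1.80 (3.47-fold lower), so Ccl2 has no settled direction. Ccl8, a further ligand gene of the same block, can be 1031 or 10310 in the knockout model and 577 or 5770 in the wildtype model. Pairing 1031 in knockout with 577 in wildtype, or 10310 with 5770, gives a difference of 0.84, and this difference had a probability of 0.97. The other pairings give -2.48 (1031 in knockout and 5770 in wildtype) and 4.16 (10310 in knockout and 577 in wildtype). The levels of Ccl8 are thus undecided, and its direction rests on that probability of 0.97. Ccl12, another monocyte attractant gene of the mouse, was near background with 23.7 in knockout and 30.1 in wildtype. Ccr2, the receptor for Ccl2 and Ccl7, was likewise near background, with 24.7 in knockout and 25.4 in wildtype.

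Ligands of Ccr1 differed from each other in direction. Ccl3 (17266967), whose product recruits monocytes and other leukocytes through Ccr1, read 303 in knockout and 2810 in wildtype, a difference of -3.21. Only 36 of the 12694 expressed genes lay below it. A wrong place of the point by 1 digit would make a difference of about that size, so the digits are given here. They were deposited as 30331174 for the knockout and 2810044 for the wildtype model. By the form of a single-precision decimal alone, the knockout value could also be 3033, and the wildtype value 281 or 28.1. None of these alternatives is a power of 2 of a single-precision number, whereas all 16856 deposited values with 1 place by form were. Ccl3 therefore has 1 possible place on each array. In RefSeq the spans of Ccl3 and Ccl4 overlap, and whether their probe sets share signal was not tested.

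Ccl9 (17266952), a Ccr1 ligand of the mouse, went the other way, with 149 in knockout and 54.0 in wildtype (difference 1.47, 2.77-fold). Both values lay above the threshold, the wildtype one by little. Ccl5, a ligand of T cells and monocytes, read 142 in knockout and 98.1 in wildtype, a difference of 0.54. Ccl6 (68.6 in knockout and 75.8 in wildtype) and Ccl4 (48.3 in knockout and 56.4 in wildtype), a close relative of Ccl3, were close to equal at low intensities. Ccr1, the receptor of several of these ligands, read 53.5 in knockout and 33.4, under the threshold, in wildtype.

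**Figure D2:**
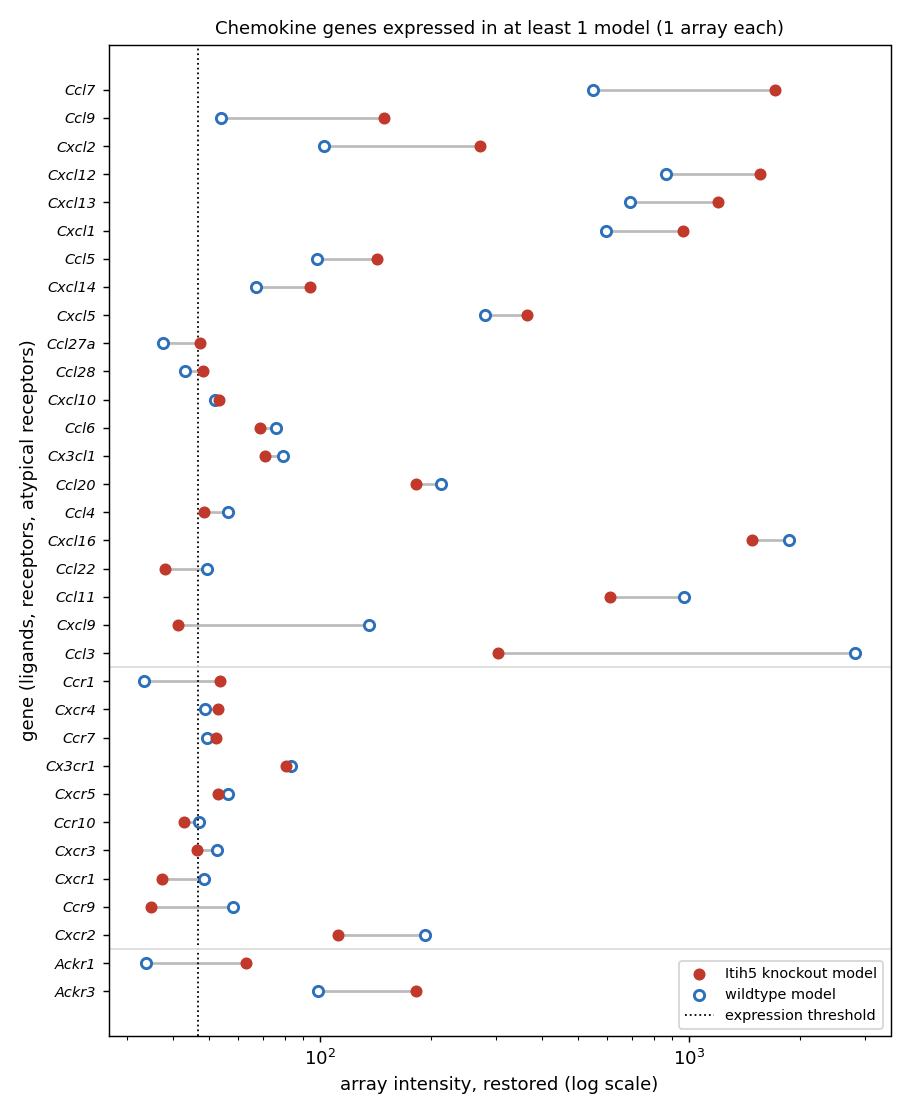
Array intensity (log scale) of the 33 expressed chemokine genes with a restored point, in the knockout model (filled red) and the wildtype model (open blue), 1 array each, with the expression threshold of 46.6 dotted. Within ligands, receptors and atypical receptors, genes run from the most positive to the most negative difference, and intensities of different probe sets are not comparable with each other.

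Of the neutrophil attractants that signal through Cxcr2, Cxcl1, Cxcl2 and Cxcl5 read higher in the knockout model and Ppbp lower. Cxcl2 (17438995) read 270.1 in knockout and 103 in wildtype, a difference of 1.40 or 2.63-fold, with a probability of 0.9895 for its point. It is the one of the 3 higher genes with more than 1 possible place, and it is not counted where a probability of 0.99 or a single place is required. Cxcl1 read 964 in knockout and 595 in wildtype (difference 0.70) and Cxcl5 363 in knockout and 280 in wildtype (0.38), both under 2-fold. Cxcl3, of the same group, was near background with 23.7 in knockout and 23.5 in wildtype, and Cxcl15 was under the threshold with 31.5 in knockout and 28.7 in wildtype. Their receptor went the other way, since Cxcr2 read 112 in knockout and 192 in wildtype, a difference of -0.78. It was the most negative difference among the receptors. Cxcr1 read 37.3, under the threshold, in knockout and 48.5 in wildtype. Ppbp, a further neutrophil attractant gene whose symbol falls outside the rule, lies between Cxcl5 and Cxcl3 and read 659 in knockout and 1926 in wildtype, 2.92-fold lower.

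Of the Cxcr3 ligands, which interferon-gamma induces and which attract T cells, Cxcl9 (17449710) was lower in the knockout model. It read 41.3, under the threshold, in knockout and 136 in wildtype, so that its difference of -1.72 depends on the background. Cxcl10 was nearly equal, with 53.3 in knockout and 51.8 in wildtype. Cxcl11, an annotated pseudogene in RefSeq, was below the threshold in both models, with 45.3 in knockout and 40.2 in wildtype. Cxcr3 stood at the threshold, with 46.5 in knockout and 52.6 in wildtype. Whether Cxcl10 and Cxcl11 share the difference of Cxcl9 cannot be told, since their wildtype values were too near background to show such a fall.

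Cxcl12, Cxcl13 and Cxcl14 each read higher in the knockout model by less than 2-fold. Cxcl12, a fibroblast-derived ligand that retains stem cells and leukocytes, read 1556 in knockout and 864 in wildtype, a difference of 0.85. Cxcl13, the attractant of B cells, read 1199 in knockout and 691 in wildtype, a difference of 0.80. The points of both had a probability of 0.97. The other pairings give 4.17 or 7.49 for Cxcl12 and -2.53 (1199 in knockout and 6907 in wildtype) for Cxcl13. Cxcl14, a ligand gene of normal epithelia, read 93.6 in knockout and 66.9 in wildtype (0.49). Of the receptors for Cxcl12, Cxcr4 was near the threshold with 52.7 in knockout and 48.7 in wildtype, while the scavenging Ackr3 read 181 in knockout and 98.7 in wildtype, a difference of 0.88. Cxcr5, the receptor for Cxcl13, read 53.0 in knockout and 56.2 in wildtype.

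The other skin ligands were all under 2-fold apart where their point was restored. Ccl11, the eosinophil attractant eotaxin, read 611 in knockout and 965 in wildtype, a difference of -0.66 and the third most negative among the ligands. Cxcl16, a membrane-bound ligand of Cxcr6, read 1480 in knockout and 1865 in wildtype (-0.33). Ccl20, which epithelia make to attract Ccr6-bearing cells, read 182 in knockout and 212 in wildtype (-0.22). For the undecided Ccr6 the likeliest difference of -0.04 follows from 26.8 in knockout with 27.5 in wildtype or from 268 with 275. The other pairings give -3.36 (26.8 in knockout and 275 in wildtype) and 3.28 (268 in knockout and 27.5 in wildtype). Cx3cl1, a membrane-bound ligand, read 70.9 in knockout and 79.3 in wildtype, and its receptor Cx3cr1 80.7 in knockout and 83.3 in wildtype. The Ccr4 ligands Ccl22 (37.9 in knockout and 49.3 in wildtype) and Ccl17 (26.4 in knockout and 31.4 in wildtype) were low, with only the wildtype value of Ccl22 above the threshold. Ccl28, a ligand of Ccr10, read 48.1 in knockout and 43.1 in wildtype, and Ccr10 42.7 in knockout and 46.9 in wildtype. Ccl25 allows 119 or 1192 in the knockout model and 89.7, 897 or 8973 in the wildtype model. Its likeliest difference, 0.41, follows from 119 in knockout with 89.7 in wildtype or from 1192 with 897, and had a probability of 0.99. The other pairings give -6.23, -2.91 or 3.73. Ccr9, the receptor for Ccl25, read 34.7, under the threshold, in knockout and 58.0 in wildtype.

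Ccl27a, the cutaneous T cell attractant that keratinocytes make, could not be read apart from its copies. Its probe set read 47.3 in knockout and 37.4 in wildtype, and 2 probe sets annotated to several symbols carried exactly the same values. A second Ccl27a probe set was undecided, at 28.8 in knockout and 31.4 in wildtype or 288 in knockout and 314 in wildtype if both points share a decade. In all, 33 probe sets, these 2 among them, named several genes of the near-identical Ccl19, Ccl21 and Ccl27 copies and were left out of all counts. With identical value pairs counted once, those of the Ccl27 copies, which include the pair of Ccl27a, read 36.0 to 95.1 in knockout and 37.4 to 84.8 in wildtype, with 8 of 9 differences above 0 and a median of 0.23. Those of the Ccl21 copies (43.4 to 62.8 in knockout and 46.6 to 67.7 in wildtype) had 5 of 5 differences below 0, from -0.13 to -0.06. Those of Ccl19 (48.1 to 67.3 in knockout and 42.8 to 67.6 in wildtype) had 4 differences above 0 and 5 below. They ran from -0.27 to 0.65, with a median of -0.06. None of the copies was 2-fold apart. Ccr7, the receptor for Ccl19 and Ccl21, read 52.0 in knockout and 49.3 in wildtype.

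Of the 21 receptors of both kinds with a restored point, 12 were expressed, most of them little above the threshold. At the accepted place of the point, none of the 12 was 2-fold apart. Besides those named above, Ackr1, which binds many inflammatory ligands without signalling, read 63.0 in knockout and 33.7, under the threshold, in wildtype. Ackr1 and Ackr3 had the most positive differences among receptors, 0.90 and 0.88. Ackr2 and Ackr4, which clear CC ligands, stayed under the threshold, at 41.0 to 45.8 in knockout and 36.0 to 43.6 in wildtype. Ccr1l1, Ccr2, Ccr3, Ccr4, Ccr8, Cxcr6 and Xcr1 ranged from 21.1 to 37.9 in knockout and from 21.6 to 37.5 in wildtype, and their differences from -0.06 to 0.27. Ligands under the threshold were Ccl1, Ccl12, Ccl17, Ccl24, Ccl26, Cxcl3, Cxcl11, Cxcl15, Cxcl17 and Xcl1, at 23.7 to 46.6 in knockout and 23.5 to 46.2 in wildtype.

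**Figure D3:**
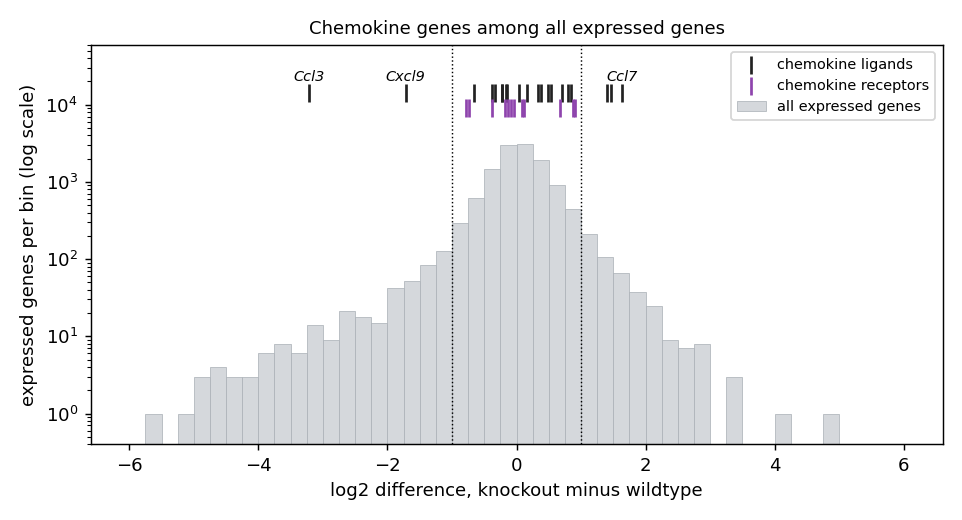
Number of expressed genes (grey bars, log scale) per bin of log2 difference, knockout minus wildtype, with the 21 expressed ligands (black ticks) and 12 expressed receptors (purple ticks) above at heights without meaning. Most ticks lie where most genes lie, between the dotted 2-fold lines, and Ccl3 stands in the lower tail.

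Genes that lie next to each other on a chromosome did not all share a direction. In the block of chromosome 11 that runs from Ccl5 to Ccl4, Ccl9 stood at 1.47 and Ccl3, with only Ccl6 (-0.14) between them among the chemokine genes, at -3.21. Ccl4, beyond Ccl3, stood at -0.22. In the block from Ccl2 to Ccl1 on the same chromosome, Ccl7 stood at 1.64 and its neighbour Ccl11 at -0.66. On chromosome 5, the block from Cxcl5 to Cxcl2 had no negative difference among the members, from 0.01 for Cxcl3 to 1.40 for Cxcl2, although Ppbp within it stood at -1.55. In the block of Cxcl9, Cxcl10 and Cxcl11 on the same chromosome only Cxcl9 was 2-fold apart, and the other genes read too low to show a fall. Ccl22, Cx3cl1 and Ccl17 on chromosome 8 ranged from -0.38 to -0.16.

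**Figure D4:**
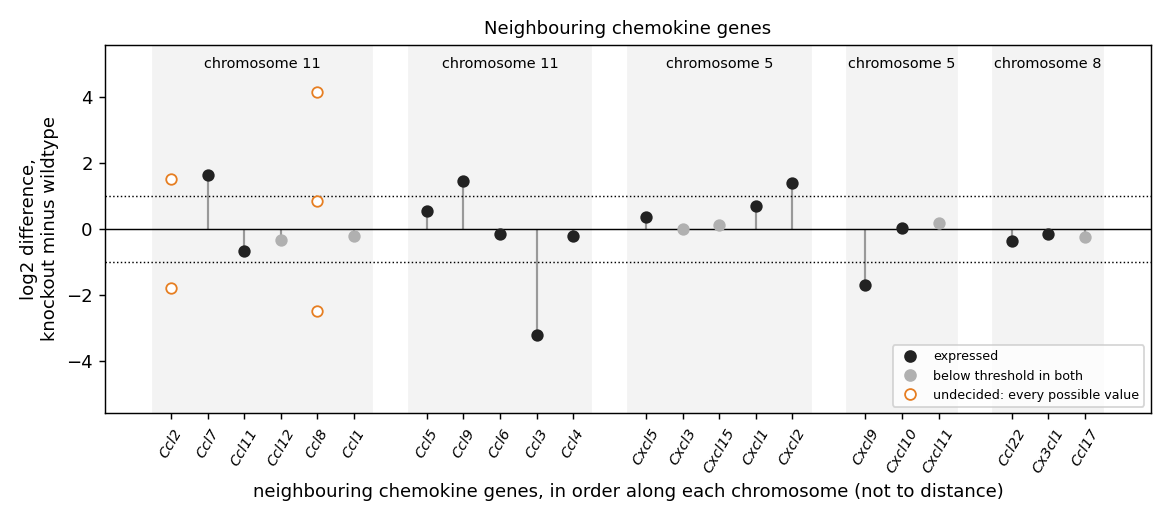
Log2 difference, knockout minus wildtype, of chemokine genes in 5 blocks, in their RefSeq order along chromosomes 11, 5 and 8 and not to distance, with dotted lines at 2-fold. Black points are expressed genes, grey points genes below the threshold in both models, and open orange points every difference possible for the undecided Ccl2 and Ccl8.

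Cytokines that induce chemokines, and their receptors, were listed for comparison. Of 21 expressed ones, 4 were at least 2-fold higher and 1 was lower in the knockout model, with a median of 0.41, beside 0.04 over all expressed genes. The alarmin Il33 read 1775 in knockout and 448 in wildtype, the TNF receptor gene Tnfrsf1b 602 in knockout and 192 in wildtype, the interleukin-1 receptor gene Il1r1 3739 in knockout and 1585 in wildtype and the macrophage growth factor Csf1 563 in knockout and 251 in wildtype. Il18 read 50.9 in knockout and 194 in wildtype. Tnf itself read 136 in knockout and 218 in wildtype and Il1a 2536 in knockout and 1793 in wildtype, both under 2-fold. Interferon-gamma (Ifng, 25.6 in knockout and 26.7 in wildtype) and Il17a (30.6 in knockout and 32.5 in wildtype) were near background. Among 23 expressed genes of signalling below the receptors, Rgs2, a brake on G proteins, was the only one 2-fold apart, with 1535 in knockout and 421 in wildtype, and the list's median was 0.28. Among 10 expressed proteases and proteoglycans that trim or hold chemokines, only the gelatinase gene Mmp9 was 2-fold apart, with 197 in knockout and 64.6 in wildtype (list median 0.22). Of 4 expressed chemokine relatives outside the rule, only Ppbp was 2-fold apart (list median -0.43).

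Markers of the cells in the models also differed between the 2 arrays, and their part in the results above was not tested. All 14 expressed keratinocyte markers with a restored point, of 20 listed, were lower in the knockout model (median -1.29). Of these, 9 were at least 2-fold lower, beside 3.31% of all expressed genes. The 8 most negative were Grhl3 (-2.51), Ovol1 (-2.32), Elf3 (-1.95), Ehf (-1.71), Pkp3 (-1.47), Dsp (-1.44), Krt10 (-1.35) and Pkp1 (-1.23). The summed intensity of the 14 was 15733 in knockout and 34824 in wildtype. All 14 expressed dermal fibroblast markers, of 20 listed, were higher (median 0.89). At least 2-fold higher were 5, beside 3.76% of all expressed genes, namely Fn1 (2.03), Col6a2 (1.85), Twist2 (1.63), Col1a1 (1.29) and Col5a2 (1.01). Lum (-0.33) and Fap (-0.31), restored but under the threshold in both models, were lower. The summed intensity of the 16 restored fibroblast markers was 20172 in knockout and 10449 in wildtype. In RNA from whole models, fewer cells of a type and less RNA per cell cannot be told apart. The general leukocyte gene Ptprc was undecided. Other leukocyte markers were mostly under the threshold in both models. Cd3e, Cd4, Cd8a, Cd79a, Ms4a1, Itgam, Itgax, Csf1r and Ly6g read 28.8 to 43.5 in knockout and 27.8 to 39.8 in wildtype. Of the 11 restored macrophage and dendritic cell markers, 4 were expressed, Cd14 (551 in knockout and 240.2 in wildtype), Cd68 (861 in knockout and 1161 in wildtype), Lyz2 (151 in knockout and 203 in wildtype) and Aif1 (36.0 in knockout and 47.8 in wildtype), and the list summed to 1852 in knockout and 1920 in wildtype. Of the 11 T and NK cell markers, Il7r (98.4 in knockout and 367 in wildtype), Thy1 (345 in knockout and 218 in wildtype), which also marks fibroblasts, and Nkg7 (46.4 in knockout and 47.2 in wildtype) reached the threshold, and the list summed to 743 in knockout and 877 in wildtype. The 5 B cell markers stayed under it, at sums of 189 in both models. Of 9 neutrophil and mast cell markers, Kit alone reached the threshold (50.3 in knockout and 46.1 in wildtype), at list sums of 301 in knockout and 288 in wildtype. Of 10 endothelial markers, 4 did, among them Kdr with 87.4 in knockout and 36.1 in wildtype, at sums of 439 in knockout and 403 in wildtype.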

How the data were processed

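The authors' deposited values are array intensities on a linear scale, 1 column per sample. Per the labels' protocols, total RNA was amplified with the WT Expression Kit and labelled with the WT Terminal Labeling Kit. Scanner software, probe set summary and normalization were not stated. The decimal point was missing from 67457 of 67586 values. A place was possible if it gave a number that single precision prints in that shortest form, that is 2 to a single-precision exponent, that lies between 18 and 20000, and that had at least 3 decimals, since the values that kept a point had at most 2. Pairs of places were weighted by the joint distribution of level and difference over all probe sets (25 rounds of expectation maximisation, bins of 0.5 and 0.1 log2), and a pair was accepted from a probability of 0.95. In this way 31902 of 33793 probe sets were restored, with 46.3 wrong ones expected among them by these same probabilities. The step was tested on data simulated from the restored values under the same rules, which cannot show an error in those rules. The column medians, 46.3 in knockout and 46.7 in wildtype, were left as they were.

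Probe sets with 1 symbol were used (23521), and a gene with several was represented by its brightest. All 56 members matched RefSeq by Entrez identifier. Every expressed member is named with its values, as are, for other lists, at most 8 members at least 2-fold apart, the largest first (keratinocyte and fibroblast markers by their difference). Members, lists and thresholds were chosen with earlier results of these data known. Of list genes under 2-fold, those in the text were chosen after their values were seen. With 1 array per group no test was made, and genes were counted by size (2-fold). Alternatives were folds of 1.5 and 3, quantile normalization, a pseudocount of 16, filters, means over probe sets and rules for the point. Python 3.11.15 with numpy 2.4.6 and pandas 2.3.3 was used.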

Additional observations from a re-analysis of the deposited data

How the results depend on the processing

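With 1 array per model no spread can be given, and no array could be left out. No paired analysis was possible because 1 knockout and 1 wildtype array share nothing to pair. Against 3 higher and 2 lower genes at 2-fold, 1.5-fold gave 9 and 5 and 3-fold gave 1 and 2, by construction of the threshold. Under the other settings the counts were 2 to 4 higher and 2 lower, with 4 when every point took its likeliest place, which adds Ccl2, and 2, without Cxcl2, at a minimum probability of 0.99 or with 1 possible place only. The ligand median of 0.16 became 0.013 without the expression filter, 0.43 with the threshold at the 60th percentile, 0.041 at a minimum probability of 0.99 and 0.36 at every likeliest place. The receptor median of -0.07 became 0.42 at the 60th percentile and 0.011 without the expression filter, so neither median is firm. These settings change which genes are counted. Of the differences of the 33 expressed genes, quantile normalization moved 0 by more than 0.1 log2, and the pseudocount of 16 moved 8. Means over probe sets and the rules for the point kept the same values of each gene they counted. They could therefore not move the difference of a single expressed gene. Under quantile normalization and the pseudocount, 0 differences changed sign among those at least 2-fold apart. With the pseudocount Cxcl9 stood at -1.40, Ccl9 at 1.24 and Cxcl2 at 1.27. Intensities near background, which differs between probe sets, compress differences, and this touches most receptors.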
